A study of Sus scrofa with 16 samples.

Results

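The miR-10 and miR-196 miRNAs are encoded between the HOX genes, and their levels in the ovaries of sows with high and low fecundity are described here. The members were all entries of the deposited count table named for ssc-miR-10a, ssc-miR-10b, ssc-miR-196a or ssc-miR-196b, with or without an arm suffix, and the levels of expression had no part in the choice. This gave 5 of 1940 entries, namely ssc-miR-10a-5p, ssc-miR-10b, ssc-miR-196a, ssc-miR-196b and ssc-miR-196b-5p. The table holds 216 known and 1724 predicted miRNAs, and all 5 members are among the known ones. No member had the same counts in every library as another entry.

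HOX genes are transcription factor genes that lie in clusters and set position along the body axis, and the miRNAs encoded among them are expressed in patterns that follow the neighbouring genes. In the pig annotation from RefSeq (assembly Sscrofa11.1), MIR10A lies between HOXB3 and HOXB5, MIR10B is next to HOXD3, the first copy of MIR196A lies between HOXB8 and HOXB13, and the second copy is next to HOXC10. MIR196B is named in the count table only. A mature miRNA pairs through its seed, near its 5′ end, with target mRNAs and lowers their translation or stability. miR-196 is best known for directing the cleavage of HOXB8 mRNA, and miR-10a and miR-10b are abundant in many adult tissues and have been studied in granulosa cells, the somatic cells that surround the oocyte. miR-10a differs from miR-10b, and miR-196a from miR-196b, by a single base, so that reads could be split between the members of a pair, and how reads were assigned is not given in the sources used here.

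The study compared ovaries of Canadian Large White sows, 4 in each of 4 groups, to find RNAs that differ with fecundity. LH (high fecundity) and LL (low fecundity) ovaries were taken on day 14 after estrus, in the luteal phase, and FH (high) and FL (low) ovaries on day 20, in the follicular phase. All sows were of the same breed, each library came from the ovary of a separate sow, and fecundity is a phenotype of the sow, since no allele or agent was introduced. In the study's records every LH sow was of higher parity than every LL sow, so that parity and fecundity cannot be told apart in the luteal phase.

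Library totals ran from 8998496 to 37194836 counts, with a median of 17221950. Levels are given as CPM, which are counts scaled to a common library size, here after TMM normalization (a scaling that equalizes the bulk of the miRNAs between libraries). Where a miRNA is at 0, as many as 3 reads could have been missed, which is 0.0807 to 0.333 CPM before TMM scaling and covers counting error only. miR-202-5p, a miRNA of gonadal somatic cells, was found in all 16 libraries, at 64.5 to 3843 CPM. In 3 libraries (LH4, FL2 and FL4) ssc-miR-34c, which is abundant in ciliated and tubal epithelium, stood at 21379, 7335 and 15224 CPM, against 18.3 to 195.7 CPM in the other 13. The 5 epithelial miRNAs scored (miR-34c, miR-429, miR-205, miR-182 and miR-183) summed to 21828, 7510 and 16083 CPM in these libraries and to 145 to 1118 CPM in the others, and none was at 0 in any of the 3. Nearly all of the sum in LH4, FL2 and FL4 was miR-34c itself, so the sum does not show that the 5 agree. miR-429 stood at 103, 42.5 and 341 CPM in these libraries, against 0.946 to 18.7 CPM in the other 13. The main comparisons of the members are therefore given with and without LH4, FL2 and FL4 where these libraries bear on them. Whole ovaries were sequenced, so that fewer cells of a type and less miRNA per cell cannot be told apart.

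The 5 members differed widely in abundance. miR-10b took 1.07% to 2.34% of all counts in a library and ranked between 10th and 17th among all entries. miR-10a-5p took 0.0240% to 0.899%, and the 3 miR-196 entries together 7.05e-05% to 0.0321%. Together the 5 members made up 1.10% to 2.50% of the counts. Counts of different miRNAs also depend on how well each is ligated into a library, so these shares compare a miRNA between libraries and do not measure the relative amounts of different miRNAs.

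miR-10a-5p was lowest in LL and highest in the follicular ovaries and in LH4. In LH it stood at 498, 427, 1555 and 7978 CPM in replicates 1 to 4, and in LL at 138, 361, 221 and 435 CPM. In FH it stood at 2040, 5428, 2515 and 2097 CPM, and in FL at 4402, 2023, 2319 and 7341 CPM. All 4 LL libraries lay below all 8 follicular libraries, 3 of the 4 LH libraries did as well, and the fourth, LH4, was the highest of the 16. The share of all miRNAs with LL below all follicular libraries was not computed, so how common this is cannot be said. The order of the group medians was FL (3360 CPM), FH (2306 CPM), LH (1026 CPM) and LL (291 CPM), and neighbours in this order overlapped. LH and LL overlapped in a single pair of libraries, since LH2 was below LL4.

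miR-10b was the most even member. In LH it stood at 12294, 23734, 21379 and 16414 CPM and in LL at 6179, 11402, 10808 and 13847 CPM. In FH it stood at 17627, 20652, 21560 and 31610 CPM and in FL at 21820, 15151, 28467 and 9039 CPM. Its coefficient of variation over the 16 libraries was 40.0%, against 101% for miR-10a-5p and 124% for miR-196a. LL had the lowest median, 11105 CPM, while FH (21106 CPM), LH (18897 CPM) and FL (18486 CPM) were close together, and neighbours in this order overlapped.

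miR-196a stood at 1.96 CPM or lower in 6 of the 8 luteal libraries and at 15.2 CPM or higher in 6 of the 8 follicular ones. In LH it was counted 1556, 17, 11 and 766 times (97.6, 0.792, 0.644 and 34.4 CPM), and in LL 0, 0, 53 and 11 times (0, 0, 1.96 and 0.379 CPM). In FH the counts were 1526, 135, 575 and 2651 (97.4, 15.2, 40.5 and 96.3 CPM), and in FL 750, 578, 12 and 64 (40.7, 56.3, 1.14 and 3.62 CPM). LH and FL each held both high and low libraries, with LH1 and LH4 far above LH2 and LH3, and the spread within these groups was as wide as the distance between them.

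The 2 miR-196b entries were never counted in the same library. ssc-miR-196b was above 0 in 4 libraries, ssc-miR-196b-5p in the other 12, and both in 0. ssc-miR-196b was counted 27 times in LH3, 29 times in LL2, 2372 times in FH1 and 438 times in FL1. ssc-miR-196b-5p was counted 231, 47, 0 and 7058 times in LH, 12, 0, 27 and 39 times in LL, 0, 74, 1124 and 882 times in FH, and 0, 107, 27 and 573 times in FL. Taken entry by entry, a 0 in either column therefore does not show that the miRNA was absent from the library. After the values were seen the entries were summed as well, and the sum is called summed miR-196b here.

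Summed miR-196b was counted in all 16 libraries. It stood at 14.5, 2.19, 1.58 and 317 CPM in LH and at 0.405, 1.50, 0.999 and 1.34 CPM in LL. It stood at 151, 8.35, 79.3 and 32.0 CPM in FH and at 23.8, 10.4, 2.56 and 32.4 CPM in FL. LL was the lowest group, with every library below every LH, FH and FL library, although LH3 at 1.58 CPM was only just above LL2 at 1.50 CPM. How common it is among all miRNAs for LL to lie below the follicular groups was not computed. LH4 was the highest of the 16 libraries, as for miR-10a-5p.

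**Figure D1:**
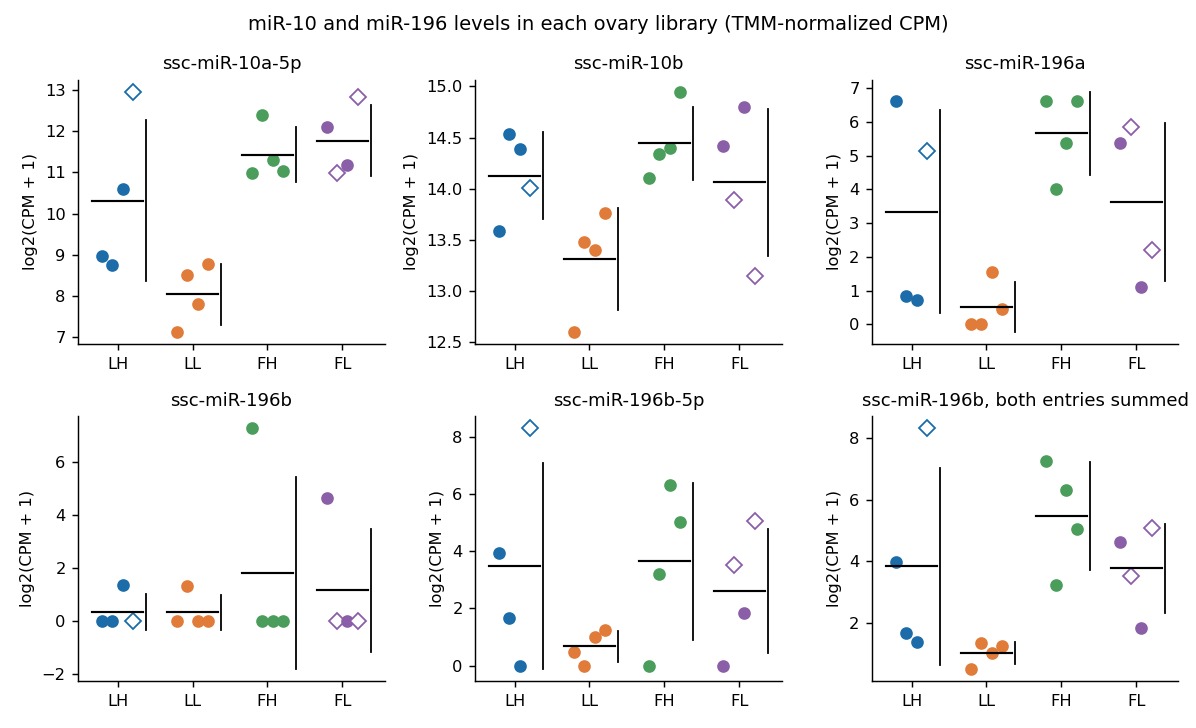
Levels of the 5 members and of summed miR-196b as log2(CPM + 1), by group (LH, LL, FH, FL; 4 libraries each). Circles and diamonds are libraries, open diamonds being LH4, FL2 and FL4 with high miR-34c, horizontal lines are group means and vertical lines 1 SD on each side. The 4 LL libraries lie lowest for miR-10a-5p and summed miR-196b apart from LH2 for miR-10a-5p, and the 2 miR-196b entries are above 0 in different libraries.

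In the luteal phase, LH vs. LL, miR-10a-5p, miR-196a and miR-196b-5p were lower in LL. By the quasi-likelihood test of edgeR, 3 of the 4 members tested were down-regulated in LL past the threshold that the study used, which asks for P under 0.05 before adjustment and a change of 1 or more on the log2 scale. Of all 362 miRNAs tested, 6.35% were down-regulated in LL by this threshold. An adjusted p under 0.05 (Benjamini-Hochberg over all miRNAs tested) was reached by 0 members with edgeR, as against 0.829% of all miRNAs, and an unadjusted P under 0.05 by all 4 tested, as against 18.0%. With DESeq2 2 members reached it (miR-10a-5p with 0.0155 and miR-196a with 0.0339), as against 7.73% of all miRNAs. ssc-miR-196b was removed by the filter on low counts, with a mean of 0.395 CPM in LH and 0.374 CPM in LL. miR-196a passed this filter through the LH libraries, where it was high, since its counts in LL were 0, 0, 53 and 11. Its place among the 3 is read with that limit.

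miR-10a-5p was down-regulated in LL with a log2 fold change of -3.21 ± 1.03 (SE, n = 4 against 4, edgeR adjusted p = 0.220). The mean was 2614 ± 3613 CPM in LH and 289 ± 134 CPM in LL (SD). LH4 carried much of this difference, and without it the log2 fold change was -1.53 ± 0.59 and still past the threshold (edgeR adjusted p = 0.299). An exact two-sided permutation test of log2(CPM + 1) gave p = 0.0571, against a smallest possible value of 0.0286.

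miR-196a was down-regulated in LL with a log2 fold change of -5.81 ± 2.39 (edgeR adjusted p = 0.255), from a mean of 33.4 ± 45.7 CPM in LH to 0.585 ± 0.935 CPM in LL (SD, n = 4). This call was lost when LH1, LH4, LL1, LL2 or LL4 was left out (edgeR adjusted p = 0.304 to 0.499), the smallest log2 fold change being -4.31 without LH1. The exact permutation test gave p = 0.171, and the groups overlapped.

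miR-196b-5p was down-regulated in LL with a log2 fold change of -6.97 ± 2.68 (edgeR adjusted p = 0.253). Without LH4 it was -3.01 ± 2.03 and no longer past the threshold (edgeR adjusted p = 0.603). The exact permutation test of this entry gave p = 0.200, and the groups overlapped. Summed miR-196b gave a log2 fold change of -6.35 ± 1.92 (edgeR adjusted p = 0.210), and without LH4 of -2.54 ± 1.02, which was still past the threshold (edgeR adjusted p = 0.292). For the sum the LH and LL libraries did not overlap, and the exact permutation test gave the smallest value it can give, p = 0.0286. Of the 362 miRNAs tested, 6.35% also had all LL libraries below all LH libraries. None of the 5 entries did.

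miR-10b fell short of the threshold on size. Its log2 fold change of LL over LH was -0.79 ± 0.30 (edgeR adjusted p = 0.253), with means of 18455 ± 5117 CPM in LH and 10559 ± 3202 CPM in LL (SD, n = 4), and without LH4 it was -0.86 ± 0.35, its unadjusted P staying under 0.05 (edgeR adjusted p = 0.299). With library totals alone in place of TMM it was -0.20 ± 0.24 (edgeR adjusted p = 0.650), and with the share of reads kept after cleaning as a covariate -0.36 ± 0.31 (edgeR adjusted p = 0.897). The exact permutation test gave p = 0.0571.

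The size of these differences depends on the scaling, since TMM factors were 1.19 to 1.74 in LL and 0.851 to 1.07 in LH. With library totals alone in place of TMM, the median log2 fold change of all miRNAs in LH vs. LL was 0.73 in place of 0.15, and miR-10a-5p stood at -2.59 ± 0.94 and was still past the threshold (edgeR adjusted p = 0.153), while miR-196a at -5.31 no longer was and miR-10b was at -0.20. The same scaling turned the miRNAs past the threshold from 24 higher and 23 lower in LL into 57 higher and 11 lower. The call of miR-10a-5p was lost with the share of reads kept after cleaning as a covariate (log2 fold change -2.33 ± 1.40, edgeR adjusted p = 0.770), and with it no member was called. Parity as a covariate moved it to -6.15 ± 1.74 (edgeR adjusted p = 0.283).

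Muscle miRNAs summed to lower levels in LL as well. Past the threshold were 0 of the 3 smooth muscle entries tested, and the 2 entries of miR-143, with the same values, enter the sum as 1 measurement taken 2 times. Of the 5 striated muscle miRNAs tested, 2 were called lower in LL, as 6.35% of the 362 miRNAs were. miR-499-5p went the other way, with a log2 fold change of 0.74 (edgeR adjusted p = 0.320). The smooth muscle miRNAs (miR-143-3p, miR-143-5p and miR-145-5p, with none at 0) summed to 215199 to 407720 CPM in LH and to 139314 to 173330 CPM in LL. The 6 striated muscle miRNAs summed to 2155 to 3256 CPM in LH and to 449 to 984 CPM in LL, where 1 of them was at 0 in all libraries. Neither range overlapped between LH and LL, and 6.35% of the 362 single miRNAs tested also had all LL libraries below all LH libraries. The part of the muscle miRNAs in the differences of the members was not tested.

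In the follicular phase, FH vs. FL, 0 of the 4 members tested passed the threshold, which 6.19% of 307 miRNAs did, and 0 had an unadjusted edgeR P under 0.05 or a DESeq2 call. miR-10a-5p had a log2 fold change of FL over FH of 0.32 ± 0.53 (edgeR adjusted p = 0.868), and without FL4 of -0.01 ± 0.56. Its means were 3020 ± 1619 CPM in FH and 4021 ± 2453 CPM in FL (SD, n = 4). miR-10b had -0.28 ± 0.40 (edgeR adjusted p = 0.832), which turned to 0.18 ± 0.22 without FL2 and FL4. miR-196a had -1.19 ± 1.18 (edgeR adjusted p = 0.797) and miR-196b-5p -1.59 ± 2.01 (edgeR adjusted p = 0.797). Summed miR-196b had the lowest P, with -2.0 ± 1.02 (edgeR adjusted p = 0.659), and means of 67.8 ± 63.0 CPM in FH and 17.3 ± 13.3 CPM in FL. No member had all FL libraries below all FH libraries, as 1.95% of the miRNAs did. With SEs of 1.18 and 2.01 for miR-196a and miR-196b-5p, these values do not show that the groups were alike.

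Between the phases, miR-10a-5p was lower in the luteal ovaries. With high and low fecundity weighted equally, its log2 fold change of luteal over follicular was -2.0 ± 0.58 (n = 8 against 8, edgeR adjusted p = 0.0273), with medians of 431 CPM in the luteal and 2417 CPM in the follicular ovaries. It was the 1 member of 5 tested that passed an adjusted p under 0.05, which 17.5% of 445 miRNAs did. Without LH4, FL2 and FL4 it was -2.78 ± 0.51 (adjusted p = 0.00857). It kept its call by the threshold under the main processing and all 26 alternatives, where it ran from -2.85 to -1.65, and its adjusted p was under 0.05 in 19 of these 27 fits, the highest being 0.0660. Scaling to library totals alone, which moved the median of all miRNAs from 0.17 to 0.55, gave an adjusted p of 0.0548. An exact permutation test with the phases permuted within fecundity gave p = 0.00408, or 0.0612 adjusted over the 15 tests of single members.

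MiRNAs of other cell types also moved between the phases. All 3 smooth muscle entries were called lower in the luteal ovaries (median log2 fold change -1.12), as 10.3% of the 445 miRNAs were. The 2 entries of miR-143 are read as 1 measurement. With its reads entered 2 times, the entries summed to 139314 to 407720 CPM in the luteal ovaries, against 296230 to 840240 CPM in the follicular ovaries. Of the 5 striated muscle miRNAs tested, 3 were called lower (median -1.50), with sums of 449 to 3256 CPM in the luteal and 565 to 4256 CPM in the follicular ovaries. Of the 3 gonadal somatic miRNAs, 2 were called higher in the luteal ovaries (median 1.24), as 58 of the 445 miRNAs were. Their sums were 1213 to 3873 CPM there and 75.2 to 1306 CPM in the follicular ovaries. miR-202-5p made up 1209 of the 1213 CPM in LH4 and 64.5 of the 75.2 CPM in FL4, so the sums do not show that the 3 agree. The part of these cell type miRNAs in the phase differences of the members was not tested.

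By the threshold, 2 of the 5 members were down-regulated in the luteal phase, as 10.3% of the 445 miRNAs were. Beside miR-10a-5p this was miR-196a, with a log2 fold change of -3.16 ± 1.30 (edgeR adjusted p = 0.110) and medians of 0.718 CPM in the luteal and 40.6 CPM in the follicular ovaries. Its call was lost without LL4 (edgeR adjusted p = 0.166), without FL2 (edgeR adjusted p = 0.175), and without LH4, FL2 and FL4 together (log2 fold change -3.17 ± 1.56, edgeR adjusted p = 0.207). The exact permutation test gave p = 0.0233, or 0.174 adjusted over the same 15 tests. miR-10b had -0.56 ± 0.25 (edgeR adjusted p = 0.127). ssc-miR-196b had -5.28 ± 2.57 (edgeR adjusted p = 0.172) and turned positive without FH1, and ssc-miR-196b-5p had -1.27 ± 1.56 (edgeR adjusted p = 0.624). Summed miR-196b had -1.87 ± 1.00 (edgeR adjusted p = 0.201), with medians of 1.54 CPM in the luteal and 27.9 CPM in the follicular ovaries. No member had all luteal libraries below all follicular ones, as 1.35% of the miRNAs did.

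**Figure D2:**
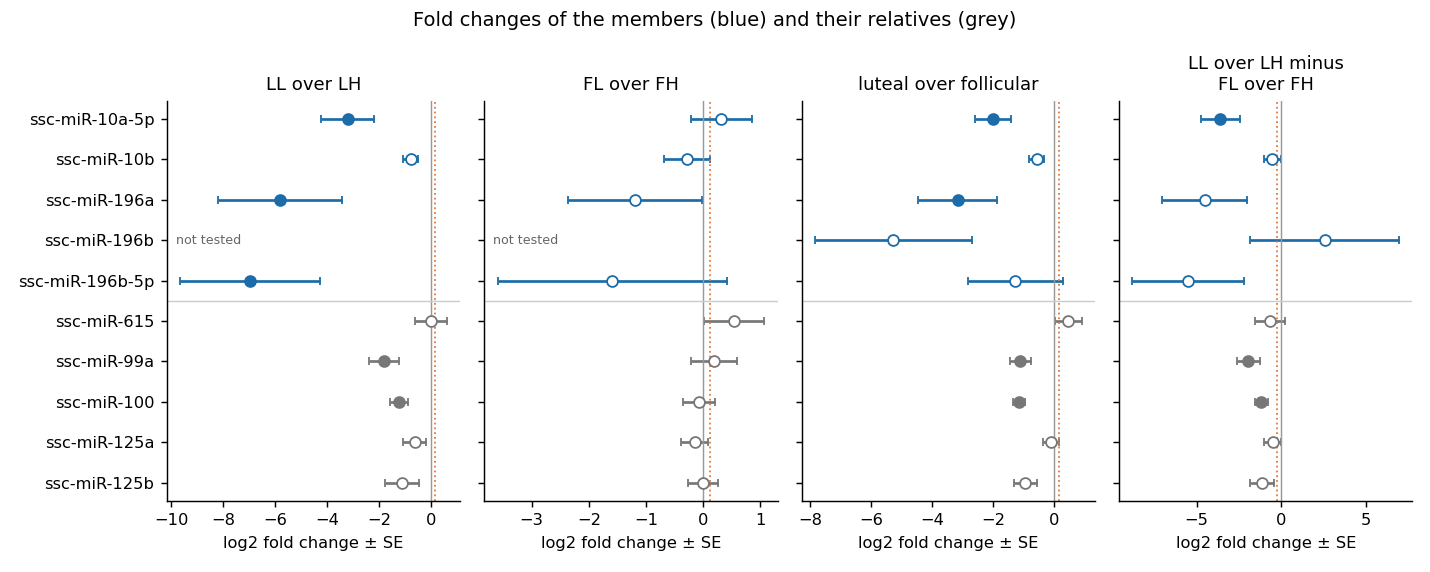
Log2 fold changes with SE from edgeR for the members (blue) and for miR-615 and the relatives of miR-10 (grey) in the 4 comparisons, with filled circles for those past the threshold and a dotted line at the median of all miRNAs tested. In LL over LH, 3 blue circles are filled and lie between -6.97 and -3.21, and in FL over FH none is filled.

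The interaction asks whether the difference between low and high fecundity was unlike in the phases. For miR-10a-5p the log2 fold change of LL over LH minus that of FL over FH was -3.59 ± 1.15 (16 libraries, edgeR adjusted p = 0.166). It was the 1 member of 5 past the threshold, against 13.3% of the 445 miRNAs. Without LH4 it was -1.92 ± 0.80 and still past the threshold (edgeR adjusted p = 0.375), and without LH4, FL2 and FL4 it was -1.67 ± 0.96 and no longer past the threshold (edgeR adjusted p = 0.524). miR-10b had -0.51 ± 0.49 and miR-196a -4.52 ± 2.50, neither past the threshold (edgeR adjusted p = 0.709 and 0.419). Summed miR-196b, a sum chosen after the values were seen, had -4.39 ± 2.02 and passed the threshold (edgeR adjusted p = 0.325). It stood at 317 CPM in LH4, against 1.58 to 14.5 CPM in the other LH libraries. Its interaction was not fitted without LH4 or without LH4, FL2 and FL4, so how far the call rests on them was not tested.

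**Figure D3:**
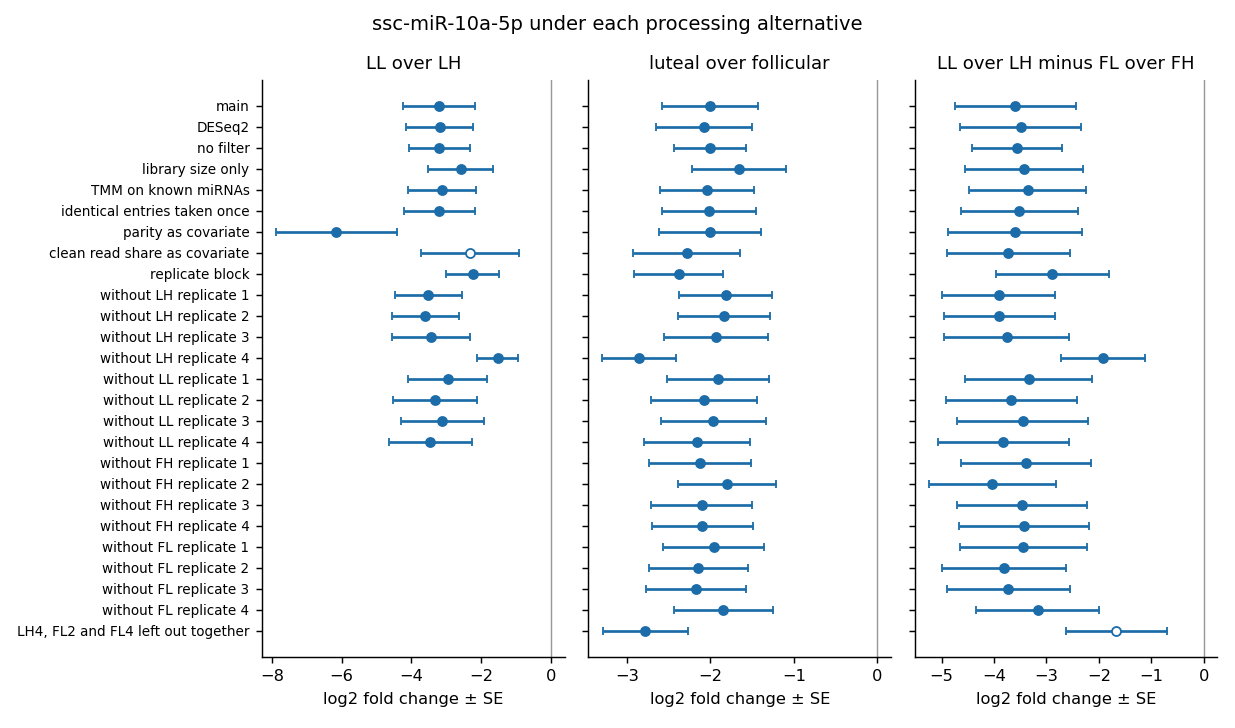
Log2 fold change of miR-10a-5p with SE in LH vs. LL, between the phases and for the interaction, under the main processing and each alternative, with filled circles for fits past the threshold. All values lie below 0, between -6.15 and -1.53 for LL over LH, and leaving out LH4 brings LL over LH nearest to 0.

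A ratio of 2 miRNAs within a library does not depend on its scaling. miR-10a-5p made up 3.89%, 1.77%, 6.78% and 32.7% of the reads of miR-10a-5p and miR-10b together in LH, and 2.18%, 3.07%, 2.0% and 3.05% in LL. In FH its share was 10.4%, 20.8%, 10.4% and 6.22%, and in FL 16.8%, 11.8%, 7.53% and 44.8%. LL was narrow and low, and LH4 and FL4 were the highest libraries. The log2 ratio of miR-10a-5p over miR-10b differed between luteal and follicular ovaries by -1.89 (exact permutation test within fecundity, p = 0.0208, or 0.125 adjusted over 6 ratio tests), and without LH4, FL2 and FL4 by -2.01. LL differed from LH by -1.46 (exact p = 0.171) and FL from FH by 0.73 (exact p = 0.457). Without LH2 the first of these was -2.12 and reached the smallest p that 3 against 4 libraries can give (exact p = 0.0286), and without LH4 it was -0.53 (exact p = 0.400).

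The ratio of miR-196a over summed miR-196b ran in both directions within groups, since LH1 had 2.75 and LH4 -3.20 on the log2 scale. It differed by -1.58 between LL and LH (exact p = 0.400), by -0.47 between FL and FH (exact p = 0.743) and by -1.54 between the phases (exact p = 0.179).

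**Figure D4:**
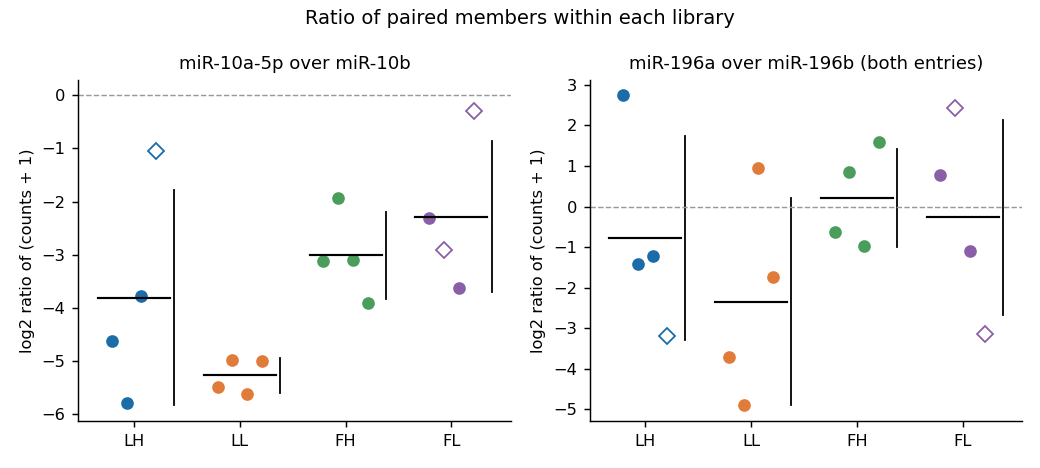
Log2 ratio of counts (with 1 added to each) of miR-10a-5p over miR-10b and of miR-196a over summed miR-196b in each library, by group, with group means, 1 SD on each side and open diamonds for LH4, FL2 and FL4. The 4 LL libraries lie between -5.61 and -4.98 for miR-10a-5p over miR-10b and the 4 FH libraries between -3.91 and -1.93.

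Members encoded in the same HOX cluster were compared across libraries. With group means removed, log2(CPM + 1) of miR-10a-5p and miR-196a, both with a gene in the HOXB cluster, had a Pearson r of -0.003 (rho = -0.072, n = 16, permutation p = 0.996 and 0.839). miR-196a and miR-615, which lies inside HOXC5 near the second MIR196A copy, had r = 0.542 (rho = 0.520, permutation p = 0.125 and 0.126), and r = 0.359 without LH1 and FH1. miR-196a and summed miR-196b had r = 0.606 (rho = 0.568, permutation p = 0.0833 and 0.0675, n = 16), and r = 0.665 without LH1 and FH1. The lowest p of the 10 pairs computed among miR-10a-5p, miR-10b, miR-196a, summed miR-196b and miR-615 belonged to miR-10b and miR-615, with r = -0.643 (rho = -0.588, permutation p = 0.0367 and 0.0541, n = 16). After adjustment over the 10 pairs the lowest p was 0.367 for r and 0.338 for rho.

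miR-615, a miRNA of the HOXC cluster, was not called in any comparison under the main processing. It stood at 36.5, 12.3, 5.56 and 11.2 CPM in LH and at 14.8 to 18.0 CPM in LL, and its log2 fold change of LL over LH was 0.00 ± 0.61 (edgeR adjusted p = 0.998). It stood at 6.88 to 10.6 CPM in FH and 6.02 to 24.2 CPM in FL, with 0.55 ± 0.52 for FL over FH and 0.47 ± 0.44 for luteal over follicular, neither past the threshold (edgeR adjusted p = 0.797 and 0.490). Its highest follicular values were those of FL2 and FL4, at 24.2 and 22.8 CPM. Without LH4, FL2 and FL4, luteal over follicular was 1.12 ± 0.47 and past the threshold (edgeR adjusted p = 0.151).

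The relatives of miR-10 were measured beside it. miR-99a, miR-99b and miR-100 share most of the miR-10 sequence apart from a shifted seed, and miR-125a and miR-125b are transcribed together with them from other loci. Of the 4 relatives tested in LH vs. LL, 2 were down-regulated in LL, as 6.35% of all 362 miRNAs were, and 0 up-regulated. Their median log2 fold change was -1.17 against 0.15 for all miRNAs. miR-99a stood at 106065, 206519, 63904 and 105703 CPM in LH and at 14637, 20923, 31440 and 72586 CPM in LL, with a log2 fold change of -1.81 ± 0.58 (edgeR adjusted p = 0.220). miR-100 had 5012 to 8928 CPM in LH and 1944 to 4876 CPM in LL, with -1.22 ± 0.34 (edgeR adjusted p = 0.202). These ranges did not overlap, and 6.35% of the 362 miRNAs also had all LL libraries below all LH libraries. On library totals alone miR-100 stood at -0.64 ± 0.27 and was not called. Both calls held without LH4, and both were lost with the share of reads kept after cleaning as a covariate, with log2 fold changes of -0.85 ± 0.41 for miR-100 and -1.30 ± 0.68 for miR-99a (edgeR adjusted p = 0.770 for each).

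In FH vs. FL 0 of the 5 relatives were called, against 6.19% of the 307 miRNAs. Between the phases miR-100 with -1.14 ± 0.20 (edgeR adjusted p = 0.00222) and miR-99a with -1.10 ± 0.34 (edgeR adjusted p = 0.0377) passed the threshold. Both were lower in the luteal ovaries, as 10.3% of the 445 miRNAs were by this threshold. On library totals alone both calls were lost, with -0.73 ± 0.15 for miR-100 (edgeR adjusted p = 0.00659) and -0.69 ± 0.29 for miR-99a (edgeR adjusted p = 0.120). The adjusted p of miR-99a was 0.0788 without LH4 and 0.100 without LH4, FL2 and FL4. miR-99b passed the threshold too but is not read as lower, since it was listed at 0 in all 8 luteal libraries and in FH1 and FL4. It stood at 1137 to 1601 CPM in the other 6. It passed the filter through follicular libraries alone, and whether its 0 counts show absence was not tested. miR-10a-5p and miR-99a and miR-100 were each down-regulated in LL and in the luteal ovaries, and these 2 comparisons share the LL and LH libraries.

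Of the known miRNAs outside the members, 191 were compared with each member with at least 10 counts in at least 8 libraries, over 16 libraries and with group means removed. Closest to miR-10a-5p were miR-23a (r = 0.697, rho = 0.544), miR-429 (r = 0.676, rho = 0.597) and miR-150 (r = 0.661, rho = 0.526). Without LL1 and LL3 their r was 0.741, 0.669 and 0.654. LH4 and FL4, the highest libraries for both miR-10a-5p and miR-429, stayed in. The r of these miRNAs with miR-10a-5p was not computed without LH4 and FL4, so how far it rests on them was not tested. Closest to miR-10b were miR-195 (r = 0.893, rho = 0.900), miR-26a (r = 0.872, rho = 0.868) and miR-146a-5p (r = 0.861, rho = 0.871), and r stayed at 0.780 or above without LL1 and FL4. Closest to miR-196a were miR-218-5p (r = 0.563, rho = 0.553), miR-615 and miR-574 (r = 0.504, rho = 0.444), and without LH1 and FH1 r was 0.473, 0.359 and 0.412. Closest to miR-196b-5p were miR-205 (r = 0.776, rho = 0.732), miR-885-5p (r = 0.765, rho = 0.712) and miR-34c (r = 0.740, rho = 0.747), with r of 0.748, 0.687 and 0.633 without LH4 and FH3. ssc-miR-196b-5p was at 0 in LH3, LL2, FH1 and FL1, where the counts were under ssc-miR-196b. These 0 counts enter its r and rho, and the closest miRNAs of summed miR-196b were not computed. The points share library depth and scaling, and these values are a description.

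Epithelial miRNAs were among those closest to miR-10a-5p and, with its 0 counts kept, to the entry ssc-miR-196b-5p. LH4 held the highest miR-34c, miR-10a-5p and summed miR-196b of the 16 libraries, and FL4 the second highest miR-34c and miR-10a-5p. FL2, with 7335 CPM of miR-34c, was the lowest of its group for miR-10a-5p, at 2023 CPM. Within groups and without these 3 libraries, miR-34c and miR-10a-5p had r = 0.526 (rho = 0.533, n = 13, permutation p = 0.153 and 0.138), and miR-34c and summed miR-196b had r = -0.591 (rho = -0.593, n = 13, permutation p = 0.0684 and 0.0743). In the same 13 libraries the summed smooth muscle miRNAs and miR-10a-5p had r = 0.685 (rho = 0.478, permutation p = 0.0380 and 0.132), with r = 0.680 without FH2 and LL2. The smooth muscle miRNAs and summed miR-196b had r = -0.771 (rho = -0.786, permutation p = 0.00866 and 0.00792), with r = -0.645 without FH2 and LL2. None of the 8 relations computed passed 0.05 after adjustment, the lowest being 0.0693 for r and 0.0634 for rho.

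**Figure D5:**
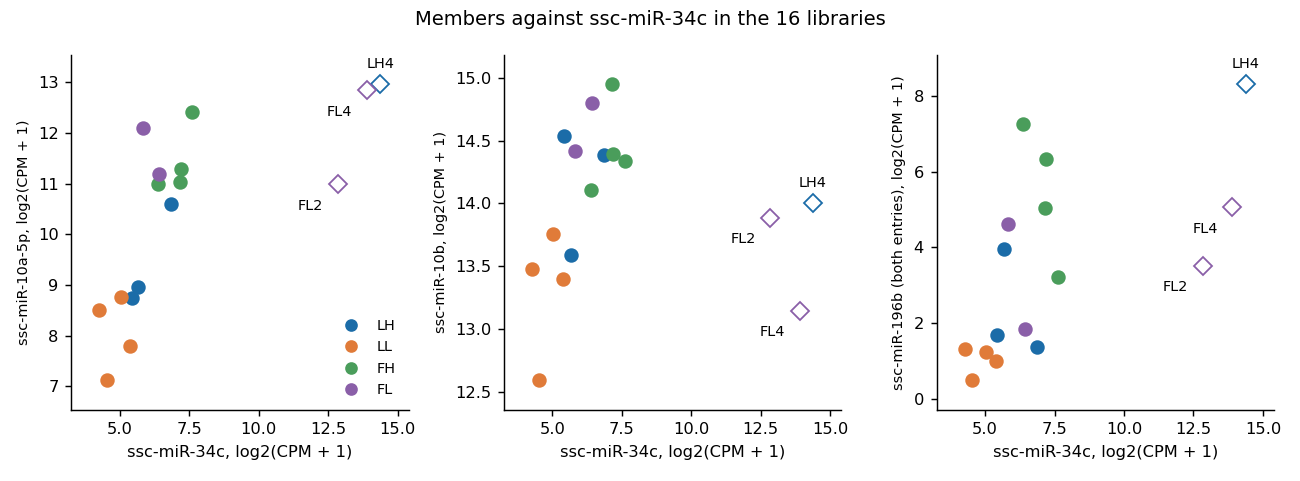
Levels of miR-10a-5p, miR-10b and summed miR-196b against miR-34c as log2(CPM + 1), 1 point per library, coloured by group, with open diamonds for LH4, FL2 and FL4. LH4 and FL4 hold the highest miR-10a-5p, FL2 the lowest of the follicular libraries at 2023 CPM, and FL4 holds the lowest miR-10b outside LL.

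The other cell type miRNAs varied as follows. Among erythroid, leukocyte, endothelial, neural and liver miRNAs, the summed level in LH overlapped that in LL for erythroid cells (36.4 to 186 and 53.3 to 112 CPM), leukocytes (827 to 1370 and 1221 to 1941 CPM), endothelium (7751 to 22206 and 15242 to 26360 CPM), liver (4.77 to 99.5 and 1.76 to 28.1 CPM) and neural tissue (37.1 to 84.2 and 18.8 to 37.6 CPM, where the lowest LH and the highest LL library were close). The liver miRNA, miR-122, reached 1363 CPM in FL2.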

How the data were processed

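Small RNA libraries were made from the ovaries of 16 sows, 4 in each of LH, LL, FH and FL. Per the study's methods, adapters and low-quality reads were removed with Trimmomatic and reads were mapped with Bowtie 2 (Bowtie2 2.1.0 and Sscrofa10.2 in the submitters' processing notes). The authors deposited raw counts of reads for each miRNA and library, with no normalization. The rule by which a read was given to a miRNA is not given in the sources used here.

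Counts were fitted across the whole table with edgeR 4.0.16 in R 4.3.3, by its quasi-likelihood test after TMM scaling. Low miRNAs were removed by filterByExpr with 10 as the count minimum and 15 as the smallest total. The fecundity comparisons used the 8 libraries of their phase, and the phases and the interaction used all 16. A log2 fold change is low over high fecundity, or luteal over follicular. P-values were adjusted by Benjamini-Hochberg over all miRNAs tested. Single members were tested by exact two-sided permutation of log2(CPM + 1), and correlations by 100000 permutations within groups, in Python 3.11.15. The fits were tested on simulated counts. Alternatives were DESeq2 1.42.0, no filter, other scalings, covariates, a replicate block, pseudocounts of 0.5 and 5, and leaving out sows. Summing the miR-196b entries and leaving out LH4, FL2 and FL4 together were chosen after seeing the data, and the members, lists and tests were chosen with earlier results of these data known.

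The text names all 5 members, the 3 known miRNAs most correlated with each member that had at least 10 counts in at least 8 libraries, miR-615 and the relatives of miR-10, and gives the other lists by their sums. Coordinates are not given, since the annotation table is of another build than the files, and mature sequences are not printed here. The mRNA and lncRNA measurements were not analysed here. No table of the authors' own comparisons was used.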

Additional observations from a re-analysis of the deposited data

Results flagged for a closer look

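Of 28 groups of 4 libraries tested for a library far from the others (5 members and 2 ratios in 4 groups), 7 had one by Dixon's test. Of these 4 are ssc-miR-196b, which was at 0 in 3 libraries of every group, so that its highest library had to stand apart, and the other 3 are read against the about 5% of groups that the test marks by chance. miR-10a-5p in LH4 stood at 7978 CPM, against 427 to 1555 CPM in the other 3 LH libraries. miR-10a-5p in FH2 stood at 5428 CPM, against 2040 to 2515 CPM in the other FH libraries. miR-196b-5p in LH4 stood at 317 CPM, against 0 to 14.5 CPM in the other LH libraries. In each group ssc-miR-196b was above 0 in 1 library, at 1.58 CPM in LH3, 1.50 CPM in LL2, 151 CPM in FH1 and 23.8 CPM in FL1, and ssc-miR-196b-5p was at 0 in these 4 libraries.

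For miR-10a-5p the log2 fold change of LL over LH minus that of FL over FH was -3.59, past the unadjusted threshold, as for 13.3% of all miRNAs, but not the adjusted one (edgeR adjusted p = 0.166). It was -1.92 without LH4, and -1.67 and no longer past the threshold without LH4, FL2 and FL4, and LH overlapped LL as FH did FL.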

How the results depend on the processing

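Both phases of the comparison of fecundity rest on 4 sows a group, and the 0 counts of miR-196a in LL1 and LL2 allow up to 3 reads each. In LH vs. LL, 3 members were past the threshold, and 0 were when the share of clean reads was a covariate, where all calls fell from 47 to 14 miRNAs, while no filter gave 158. Leaving out a sow gave 1 to 3 members and 33 (without LL1) to 94 (without LH1) of all miRNAs, and 71 without LL4. DESeq2 gave no P for miR-196b-5p, and put 28 miRNAs past the adjusted threshold in place of 3, and in the interaction 58 in place of 0 (63 at an unadjusted edgeR P under 0.05).

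In FH vs. FL no alternative run called a member, while all calls went from 19 to 93 without a filter, 5 with parity, 6 with the clean read share, 37 in a single fit of the 16 libraries, 7 without FL2 and FL4, 11 without FL4 with the entries summed, and 11 (without FL4) to 43 (without FL1) when a sow was left out, with 30 without FL3. The log2 fold change of miR-10a-5p ran from -0.0108 (without FL4) to 0.88 with a sow left out, and was -0.0106 without FL4 with the entries summed as well. That of miR-10b turned to 0.0673 with the clean read share and to 0.18 without FL2 and FL4. The difference of mean log2(CPM + 1) of miR-10a-5p ran from -0.0110 to 0.67, that of ssc-miR-196b from -1.81 to 1.16, and in LH vs. LL that of ssc-miR-196b from -0.34 to 0.33.

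Between the phases 2 members were called, and 1 with library totals alone, which shifted the calls from 58 higher and 46 lower in the luteal phase to 89 and 26, and 1 without LH4, FL2 and FL4. Leaving out a sow gave 1 to 3 members, 1 without LL4 and without FL2. No filter gave 203 calls in place of 104. ssc-miR-196b ran from -8.33 to 0.86 on the log2 scale. In the interaction 1 member was called, 2 with DESeq2, 3 without a filter (122 of all miRNAs in place of 59), 2 with the entries summed, 0 without LH4, FL2 and FL4, and 1 to 2 with a sow left out (2 without LL3). There ssc-miR-196b ran from -10.13 to 12.34 with a sow left out and was -0.45 with parity, and ssc-miR-196b-5p turned to 1.88 without LH4, FL2 and FL4.

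The ratio of miR-10a-5p over miR-10b in LH vs. LL ran from -2.12 to -0.53 with a sow left out, and that of miR-196a over miR-196b-5p in FH vs. FL from -3.62 to 1.44 around -1.08 with all sows. A pseudocount of 0.5 or 5 left 2 of 15 single tests under 0.05 and ended or made no call of a ratio. The cause of these changes was not tested.

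The replicate numbers are shared between groups but name unrelated sows. Deviations from the group means of libraries with the same number had r of -0.14 to 0.20 in LH vs. LL and -0.19 to 0.15 in FH vs. FL, so the numbers do not pair the samples. With a replicate block 1 member was called in LH vs. LL, between the phases and in the interaction, 0 in FH vs. FL, and the calls over all miRNAs were 32, 91, 39 and 4, with ssc-miR-196b at 2.52 between the phases.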
